A study of Mus musculus with 6 samples.

Results

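The NRF2 antioxidant response genes comprise a transcription factor, its sensors and a set of its direct targets. The 10 members were chosen by name, as NRF2 (gene symbol Nfe2l2), its inhibitor Keap1 and the antioxidant genes Nqo1, Hmox1, Gclc, Gclm, Srxn1, Txnrd1, Gsr and Sqstm1, out of 55487 genes in the count table. They were followed in αTC1 cells, a mouse line derived from a glucagonoma, an islet tumour of glucagon-producing α cells. Of the 6 libraries, 3 came from cells treated with G786-1089, which the labels describe as an inhibitor of SMNDC1 and which was taken to be the study's compound 1, and 3 from cells given DMSO, its solvent. SMNDC1 is a splicing factor whose Tudor domain binds dimethylated arginines, and compound 1 was found in a screen for ligands of that domain. No genetic change is given for either group, and neither the dose nor the duration of treatment is given for the sequenced cells. The labels do not say whether the 3 libraries of a group came from separate cultures, so p-values measure only the spread between these libraries. The study states of its cell culture experiments in general that each replicate was split over the treatments from a shared batch of cells and handled together. The letters A, B and C name the libraries within a group, and whether a letter stands for such a replicate is not stated. Where a fit with the letter as a replicate block ends a call, its value is given.

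NRF2 is a basic leucine zipper factor that is made continuously and, in unstressed cells, bound by KEAP1, which hands it to a CUL3 ubiquitin ligase for degradation. Electrophiles and oxidants modify cysteines of KEAP1, NRF2 then escapes, pairs with a small Maf protein and binds antioxidant response elements in the promoters and enhancers of genes for glutathione synthesis, thioredoxin-dependent reduction, NADPH supply, and quinone and heme breakdown. The autophagy receptor p62, encoded by Sqstm1, competes for the same site on KEAP1, and BACH1 occupies many of the same elements as a repressor that heme removes.

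Of the 10 members, 2 rose with compound 1, Hmox1 and Sqstm1, and 1 fell, Srxn1. The other 6 members that could be tested did not pass the threshold, and Nqo1 had no count in any library. Across all 15082 tested genes, 6.98% were called higher and 7.8% lower. A call means a p under 0.05 from the quasi-likelihood F-test of edgeR after Benjamini-Hochberg adjustment across those genes. The tested members were split in direction, since 5 of the 9 had a positive log2 fold change and 4 a negative one. Their median log2 fold change was 0.35, against 0.04 over all tested genes. Once each library's dependence on gene length was taken out, the 2 medians were 0.07 and 0.001. With library size as the only scaling they were 0.55 and 0.25. The median of the members was -0.12 without DMSO library C and -0.07 without compound 1 library C. In both of these fits the median was the value of Gclc, the tested member with the fewest counts. No other member changed direction in them. In 6 of the 9 (Hmox1, Sqstm1, Srxn1, Txnrd1, Gsr and Keap1) the values of the 3 compound 1 libraries did not overlap those of the 3 DMSO libraries, which was also so for 36.7% of all tested genes. RNA was taken from whole cultures, in which fewer cells expressing a gene and less RNA per cell cannot be told apart.

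**Figure D1:**
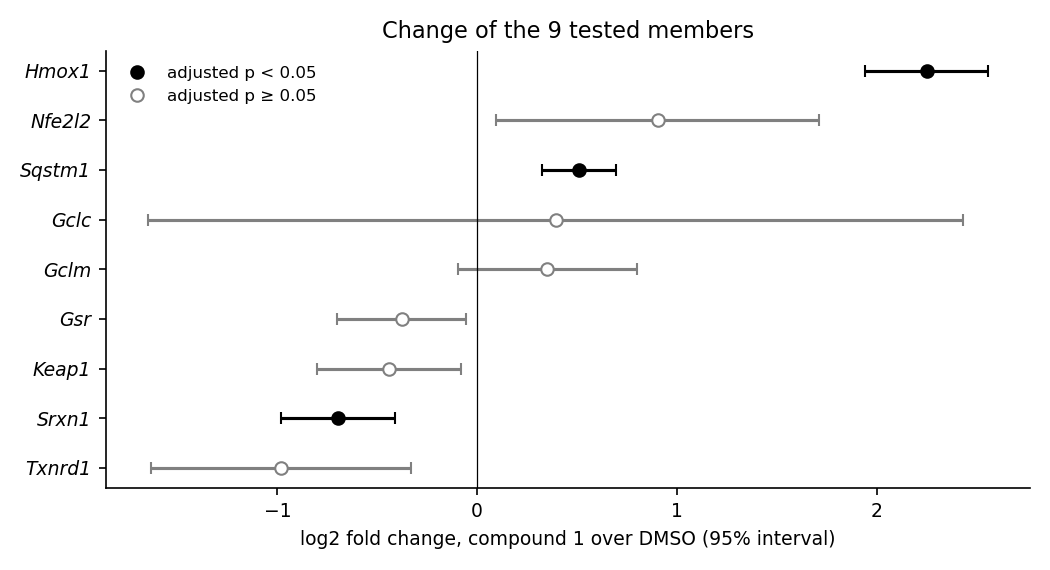
Log2 fold change of the 9 tested members, compound 1 over DMSO, with 95% intervals from edgeR's quasi-likelihood test. Filled points have an adjusted p under 0.05; Hmox1 stands at 2.25 and Sqstm1 at 0.51 on the right of 0, and Srxn1 at -0.70 on the left.

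The proximal promoter, here 250 bases before to 50 bases after the RefSeq transcription start on GRCm38.p6, was searched for the core of the antioxidant response element, TGACNNNGC, for the AP-1 site, TGANTCA, and for the longer element bound by CNC factors with small Maf, TGANTCAGC, all on both strands. The last contains an AP-1 site, so the motifs overlap. Of the 10 members 7 had a promoter in the table; Hmox1, Gclc and Gsr did not. The core was found in 4 of these 7, Nfe2l2, Gclm, Srxn1 and Txnrd1, while 14.0% of the 27025 genes in the table had it in at least 1 promoter. The AP-1 site, found in 8.97% of genes, and the CNC element, found in 1.37%, were each present in 1 member, Srxn1. The stretches below are printed 5′ to 3′ on the strand of the gene because they hold these matches, which are in capitals. They lie at chr2:75704854-75704913 (minus strand) for Nfe2l2, chr3:122245397-122245456 (plus strand) for Gclm, chr2:152105409-152105498 (plus strand) for Srxn1 and chr10:82859088-82859147 (plus strand) for Txnrd1.
Nfe2l2: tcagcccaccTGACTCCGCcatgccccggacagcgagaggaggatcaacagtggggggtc
Gclm: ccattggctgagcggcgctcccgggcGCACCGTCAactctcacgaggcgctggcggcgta
Srxn1: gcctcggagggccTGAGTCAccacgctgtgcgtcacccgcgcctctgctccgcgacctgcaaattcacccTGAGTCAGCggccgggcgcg
Txnrd1: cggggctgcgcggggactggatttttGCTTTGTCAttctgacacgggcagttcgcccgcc

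In Nfe2l2 the core lay 240 to 232 bases before the start, and in Gclm it lay 134 to 126 bases before it, on the opposite strand. In Srxn1 AP-1 sites began 102 and 45 bases before the start, the nearer one as part of the CNC element, and a core on the opposite strand, outside the printed stretch, lay 29 to 37 bases after it. In Txnrd1 the core stood 92 to 84 bases before 1 of its 3 starts in the table. A match describes these letters only. Of the 4 genes that had a core, Srxn1 fell and the other 3 did not pass the test. Their log2 fold changes, given in full below, were 0.90 for Nfe2l2, 0.35 for Gclm, -0.70 for Srxn1 and -0.98 for Txnrd1.

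**Figure D2:**
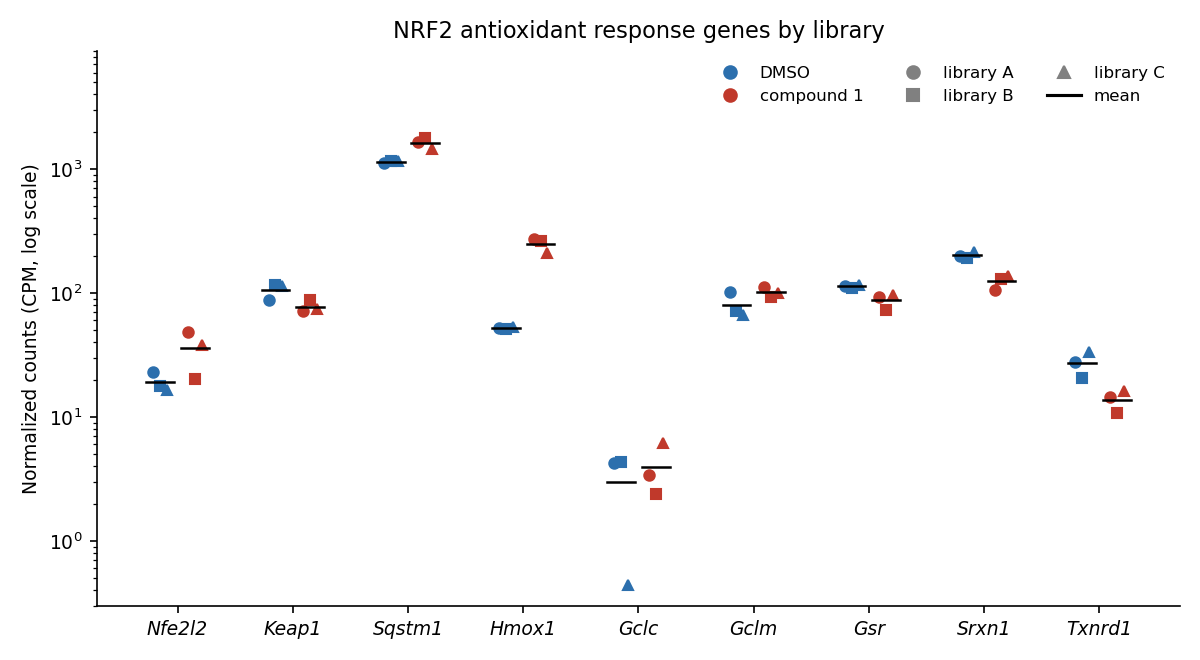
Normalized counts (CPM, log scale) of the 9 members with counts, for each of the 3 DMSO libraries (blue) and 3 compound 1 libraries (red), with bars at the group means. The groups stand apart most for Hmox1, at 50.8 to 53.5 with DMSO and 209 to 274 with compound 1, and cross for Nfe2l2, Gclc and Gclm.

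The values that follow are CPM, counts divided by the library's total and set to a common scale, with the totals adjusted by edgeR's TMM factors so that most genes are equal between libraries. Nfe2l2 (ENSMUSG00000015839, chr2:75675513-75704641, minus strand, 5 exons, GRCm38), the factor itself, had 48.9, 20.4 and 38.0 CPM in compound 1 libraries A, B and C and 23.0, 17.7 and 16.6 CPM with DMSO. Libraries A and C of compound 1 were above every DMSO library, whereas B lay between DMSO A and DMSO B, so the groups overlapped. The log2 fold change was 0.90 ± 0.34 (SE, n = 3 per group, 95% interval 0.09 to 1.71, edgeR adjusted p = 0.137). Without compound 1 library B it was 1.19 (edgeR adjusted p = 0.0389), and with DESeq2 on all 6 libraries it was 0.91 (adjusted p = 0.045), so that the call on Nfe2l2 depended on that library and on the count model.

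The 5 tested genes whose profile over the 6 libraries lay closest to that of Nfe2l2 were Pla2g15, Lrrc27, Afg1l, Kmt2c and Kat8. The measure was the root mean square distance between log2 CPM profiles centred on their own means, taken over the 7899 genes whose average log2 CPM reached 3. It ranged from 0.11 for Pla2g15, a lysosomal phospholipase, to 0.17 for Kat8, a histone acetyltransferase. The 5 were picked for this profile, so their shared shape follows from the choice: highest in compound 1 library A or C, with compound 1 library B below both. None of them is a member or a gene of the pathway lists below.

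Keap1 (ENSMUSG00000003308, chr9:21229730-21239361, minus strand, up to 6 exons), the adaptor that holds NRF2 and presents it to CUL3, had 71.1, 87.2 and 74.1 CPM with compound 1 and 88.0, 115 and 113 CPM with DMSO. The groups did not overlap, but by a narrow margin, since compound 1 library B and DMSO library A were nearly level. The log2 fold change of -0.44 ± 0.15 (SE, 95% interval -0.80 to -0.08) had an edgeR adjusted p of 0.108. With DESeq2 it passed (adjusted p = 0.0315). The ratio of Nfe2l2 to Keap1 CPM, which is not scaled by gene length, was 0.69, 0.23 and 0.51 with compound 1. With DMSO it was 0.26, 0.15 and 0.15. In the deposited FPKM, which are scaled by length, it was 1.25, 0.43 and 0.93 with compound 1 and 0.47, 0.28 and 0.27 with DMSO. Compound 1 library B again fell within the DMSO range, and the difference of 1.27 in mean log2 ratio had p = 0.2 (exact permutation test, two-sided, 20 assignments, smallest possible p = 0.1).

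Sqstm1 (ENSMUSG00000015837, chr11:50199366-50210827, minus strand, up to 8 exons), which encodes the KEAP1-binding autophagy receptor p62 and is itself an NRF2 target, rose with compound 1. It had 1662, 1771 and 1453 CPM with compound 1 and 1119, 1153 and 1158 CPM with DMSO. Every compound 1 library exceeded every DMSO library, and the DMSO libraries lay within a few percent of each other. The increase was 1.42-fold (95% interval 1.25 to 1.62, log2 fold change 0.51 ± 0.08 SE, edgeR adjusted p = 0.00774). It passed under all 16 alternatives that give it a fold change, with log2 fold changes of 0.41 to 0.71. Of the exon bases of Sqstm1, 20.5% overlap the neighbouring gene Mrnip, and of those of Keap1 11.3% overlap Gm16754. The counting ignored strand, so reads from these stretches cannot be told apart between the genes. The study's methods name Union mode for the counting, and whether such reads were counted or left out was not checked.

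Hmox1 (ENSMUSG00000005413, chr8:75093621-75100589, plus strand, 5 exons) encodes heme oxygenase 1, the inducible enzyme that opens heme to biliverdin, carbon monoxide and iron, and it changed more than any other member. It had 274, 263 and 209 CPM with compound 1 and 52.5, 50.8 and 53.5 CPM with DMSO. The lowest compound 1 library was far above the highest DMSO library, and the 3 DMSO libraries were almost equal. The increase was 4.76-fold (95% interval 3.85 to 5.88, log2 fold change 2.25 ± 0.13 SE, edgeR adjusted p = 0.000241). Under the 16 alternatives the log2 fold change stayed between 2.18 and 2.45 and passed each time. Hmox1 was the 1 member that also met a second filter, an adjusted p up to 0.1 and a log2 fold change of 1 or more in either direction. Its p limit is looser than that of a call, but it adds a limit on fold change. The study's methods state it for the genes of differential splicing events on a DESeq2 fit, and it was applied here to the edgeR values. Of all tested genes, 6.25% passed that filter as higher and 4.16% as lower.

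Hmox2, the constitutive isoenzyme, had 283, 220.1 and 277 CPM with compound 1 and 211, 239 and 245 CPM with DMSO, and the groups overlapped (log2 fold change 0.17 ± 0.12 SE, edgeR adjusted p = 0.44). Within a library the ratio of Hmox1 to Hmox2 CPM was 0.97, 1.19 and 0.75 with compound 1 and 0.25, 0.21 and 0.22 with DMSO. In FPKM, scaled by length, it was 1.33, 1.64 and 1.04 with compound 1 and 0.34, 0.29 and 0.30 with DMSO. The mean log2 ratio differed by 2.08, with no overlap between groups and p = 0.1 (exact permutation test, two-sided), the smallest value that 3 libraries against 3 allow. Over the 3 ratios tested the Benjamini-Hochberg adjusted value of this permutation test was 0.3. Of the exon bases of Hmox2, 41.4% overlap Cdip1.

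Nqo1 (ENSMUSG00000003849, chr8:107388225-107403206, minus strand, 6 exons), the quinone reductase that is often read as the reporter of NRF2 activity, had 0 counts in all 6 libraries. A count of 0 allows up to 3 counts, or 0.030 to 0.055 CPM depending on the library, a limit that covers counting error only. No fold change can be given for it. The gene was therefore not detectable with either treatment at this depth, and it takes no part in the medians or counts of tested members.

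The first step of glutathione synthesis is carried out by glutamate-cysteine ligase, whose catalytic subunit is encoded by Gclc and whose modifier subunit is encoded by Gclm. Gclc (ENSMUSG00000032350, chr9:77754535-77794485, plus strand, 16 exons) had 3.37, 2.38 and 6.11 CPM with compound 1 and 4.27, 4.31 and 0.44 CPM with DMSO. The groups overlapped throughout, and DMSO library C, with 24 counts against 238 to 530 in the other 5 libraries, stood apart. The log2 fold change of 0.39 ± 0.86 (SE, 95% interval -1.65 to 2.44, edgeR adjusted p = 0.819) left the direction undetermined, and it was -0.12 without DMSO library C and -0.07 without compound 1 library C.

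Gclm (ENSMUSG00000028124, chr3:122245557-122270732, plus strand, up to 8 exons) had 111, 92.0 and 101 CPM with compound 1 and 101, 71.1 and 65.8 CPM with DMSO. Only DMSO library A reached into the compound 1 range. The log2 fold change was 0.35 ± 0.19 (SE, 95% interval -0.10 to 0.80, edgeR adjusted p = 0.286), and 0.07 once each library's dependence on gene length was taken out. Gclm exceeded Gclc in every library. In FPKM, scaled by length, their ratio ran from 10.1 to 23.7 with compound 1 and from 10.1 to 91.3 with DMSO. In CPM it ran from 16.5 to 38.7 with compound 1 and from 16.5 to 149 with DMSO, the highest being DMSO library C. The difference in mean log2 ratio was -0.49 (exact permutation test, two-sided, p = 0.8), and it turned to 0.48 without that library.

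Gsr (ENSMUSG00000031584, chr8:33652523-33698163, plus strand, 13 exons), glutathione reductase, returns oxidised glutathione to its reduced form with NADPH. It had 93.3, 72.4 and 95.8 CPM with compound 1 and 114, 109.8 and 116 CPM with DMSO. All 3 compound 1 libraries were below all 3 DMSO libraries, yet with a log2 fold change of -0.38 ± 0.14 (SE, 95% interval -0.70 to -0.05) the edgeR adjusted p was 0.122. With DESeq2 the adjusted p was 0.0241.

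Srxn1 (ENSMUSG00000032802, chr2:152105516-152111376, plus strand, 2 exons), sulfiredoxin, which repairs overoxidised peroxiredoxins, fell with compound 1. It had 106, 131 and 136 CPM with compound 1 and 199, 192 and 214 CPM with DMSO. The groups were well separated, and the level with DMSO was 1.62 times that with compound 1 (log2 fold change -0.70 ± 0.12 SE, 95% interval -0.98 to -0.41, edgeR adjusted p = 0.0117). It passed under 15 of the 16 alternatives, the exception being the fit without DMSO library C (log2 fold change -0.66, edgeR adjusted p = 0.0515). This is the member whose promoter stretch printed above holds both AP-1 sites and the CNC element.

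Txnrd1 (ENSMUSG00000020250, chr10:82833951-82897712, plus strand, up to 15 exons), the cytosolic thioredoxin reductase, is a selenoprotein that passes electrons from NADPH to thioredoxin. It had 14.4, 10.7 and 16.3 CPM with compound 1 and 28.0, 20.6 and 33.4 CPM with DMSO. The groups did not overlap. The log2 fold change was -0.98 ± 0.27 (SE, 95% interval -1.63 to -0.33), second in size to that of Hmox1, and its edgeR adjusted p of 0.0585 lay just outside the threshold. It passed under 4 of 16 alternatives, among them DESeq2 (adjusted p = 0.00254) and gene length offsets (log2 fold change -1.17, edgeR adjusted p = 0.0366), and under 0 of the 6 that leave out a library.

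**Figure D3:**
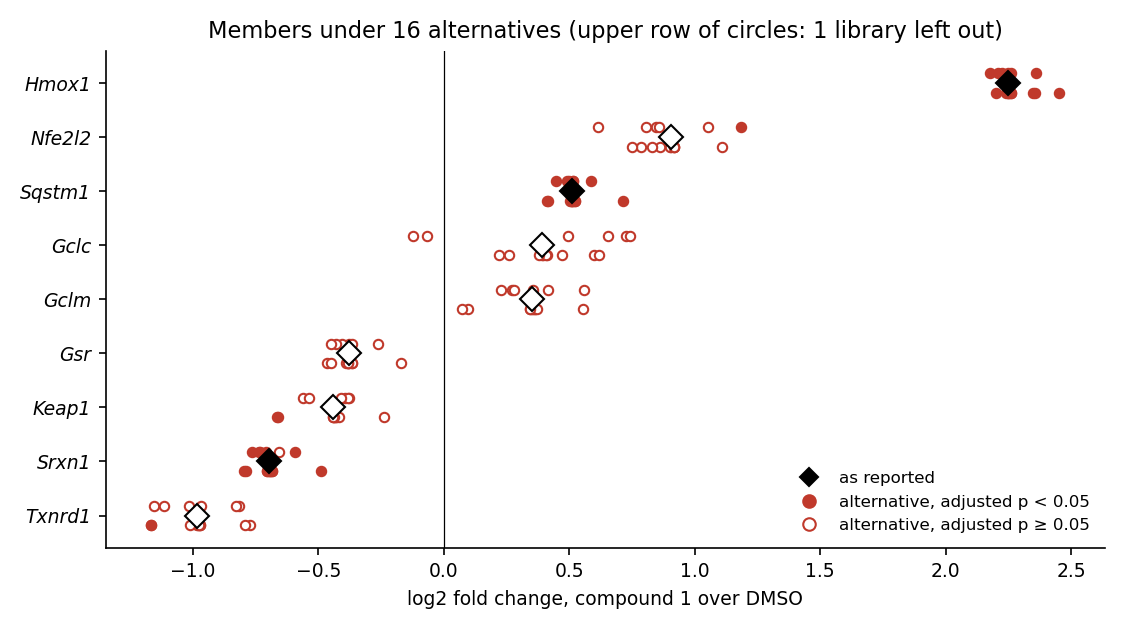
Log2 fold change of the 9 tested members in the fit reported (diamonds) and under 16 alternatives (circles, with the 6 that leave out 1 library in the upper row); filled symbols have an adjusted p under 0.05. Hmox1 and Sqstm1 are filled in all 16 and Srxn1 in 15, and Gclc is the 1 member with circles on both sides of 0.

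To compare levels between genes, the deposited FPKM values were used, which are scaled per kilobase of transcript and between libraries. With DMSO the order of the members was Sqstm1 (372 ± 7.13 FPKM, SD, n = 3), Srxn1 (65.9 ± 3.81), Gsr (38.9 ± 1.19), Hmox1 (30.6 ± 0.87), Keap1 (21.5 ± 3.07), Gclm (13.1 ± 3.13), Nfe2l2 (7.09 ± 1.26), Txnrd1 (6.16 ± 1.46) and Gclc (0.81 ± 0.60), with Nqo1 at 0. In this group only Nfe2l2 and Txnrd1, next to each other, overlapped in their ranges. With compound 1 Hmox1 stood second at 145 ± 20.6 FPKM, behind Sqstm1 at 529 ± 54.9, and ahead of Srxn1 at 40.5 ± 5.28 and Gsr at 29.9 ± 4.24. The next 3, Gclm (16.6 ± 1.49), Keap1 (15.8 ± 1.85) and Nfe2l2 (13.2 ± 5.26), overlapped in their ranges, Nfe2l2 running from 7.60 FPKM to just above the highest Keap1 library, so their order did not exceed their spread. Txnrd1 followed at 3.10 ± 0.62 and Gclc at 1.06 ± 0.51. The transcript of the KEAP1 competitor was thus the highest of the members with either treatment, and the catalytic ligase subunit was the lowest of those with counts.

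Around the members, 112 further genes of the pathway were listed by symbol in 8 groups by role. The lists were written with earlier results of these data known, so their counts describe these genes and are no independent evidence of a direction. Of these, 88 could be tested and 14 had 0 counts in every library. Called higher were 5 of the 88 and lower 23, or 5.68% and 26.1%, against the 6.98% and 7.8% of all tested genes given above. Without DMSO library A the calls were 4 higher and 12 lower, and without DMSO library B 4 higher and 13 lower. The median log2 fold change of the 88 was -0.32. The groups of libraries did not overlap in 48 of them, or 54.5%, against 36.7% of all tested genes. With the library letter as a replicate block, 22 of the 88 were called, 4 higher and 18 lower.

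**Figure D4:**
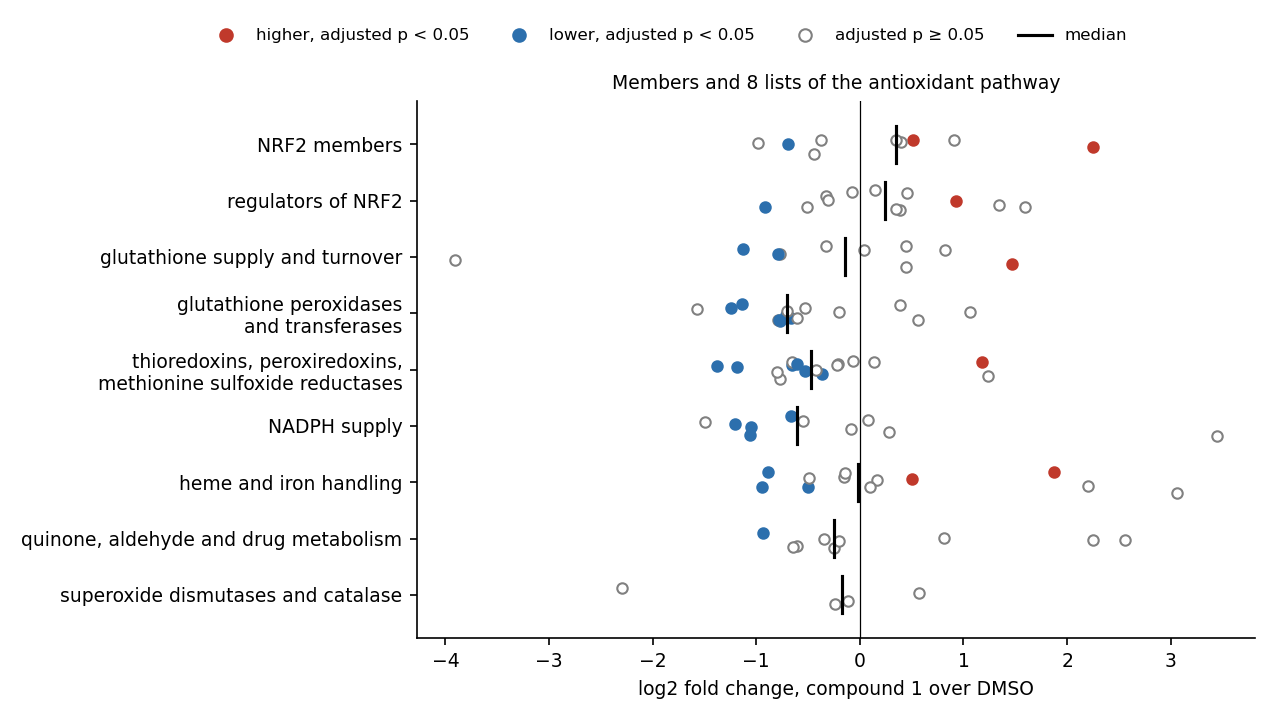
Log2 fold change, compound 1 over DMSO, of each tested gene among the members and the 8 pathway lists; red points were called higher, blue points lower (edgeR adjusted p under 0.05), open points were not called, and black bars are medians. Blue points gather in the lists of glutathione peroxidases and transferases (6 of 15 tested), thioredoxins and peroxiredoxins (6 of 16) and NADPH supply (4 of 10).

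Among 12 tested regulators of NRF2, 1 rose and 1 fell. Nfe2l1, the NRF2 paralog that controls proteasome genes, had 134, 136 and 90.9 CPM with compound 1 and 65.5, 52.6 and 71.5 CPM with DMSO (log2 fold change 0.93 ± 0.20 SE, edgeR adjusted p = 0.0256). It passed in 8 of 16 alternatives but not with the replicate block (edgeR adjusted p = 0.0851) or with gene length offsets (log2 fold change 0.68, edgeR adjusted p = 0.0646). Park7, which encodes DJ-1, a protein reported to stabilise NRF2, fell in all 3 libraries, to 825, 892 and 848 CPM from 1557, 1608 and 1676 CPM (log2 fold change -0.92 ± 0.06 SE, edgeR adjusted p = 0.000296). The repressor Bach1, whose groups overlapped, had 3.88 to 13.0 CPM with compound 1 and 1.23 to 5.04 CPM with DMSO (log2 fold change 1.59 ± 0.74 SE, edgeR adjusted p = 0.223). The ligase scaffold Cul3 (log2 fold change 0.39, edgeR adjusted p = 0.728) and the NRF2 partner Mafg (log2 fold change 0.35, edgeR adjusted p = 0.184) did not pass either.

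Of the 10 genes for glutathione supply and turnover, all tested, 1 rose and 2 fell. The 2 chains of the cystine transporter moved in opposite directions. The heavy chain Slc3a2, which also serves other amino acid transporters, rose to 2339.7, 2509.6 and 2525 CPM from 919, 885 and 855 CPM (log2 fold change 1.47 ± 0.06 SE, edgeR adjusted p = 0.000102). The light chain Slc7a11, which carries the cystine and is an NRF2 and ATF4 target, fell to 18.5, 30.3 and 30.3 CPM from 57.4, 58.6 and 57.3 CPM (log2 fold change -1.13 ± 0.22 SE, edgeR adjusted p = 0.019). Slc3a2 shares stretches of at least 100 bases at 95% identity with 332 other annotated genes and Slc7a11 with 9, tubulin genes among them, so both levels carry that uncertainty. Chac1, which degrades glutathione, fell (log2 fold change -0.79 ± 0.16 SE, edgeR adjusted p = 0.022, and 0.0567 with the replicate block), and Gss, which completes its synthesis, had a log2 fold change of 0.45 ± 0.14 SE (edgeR adjusted p = 0.0829).

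Of the 15 tested genes in the list of glutathione peroxidases and transferases, 6 fell and 0 rose. Gstp1, a transferase, was at 345, 411 and 371 CPM with compound 1 and 861, 888 and 925 CPM with DMSO (log2 fold change -1.25 ± 0.08 SE, edgeR adjusted p = 0.00036). Gpx4, which reduces lipid peroxides, was at 234, 229 and 222 CPM against 368, 345 and 375 CPM (log2 fold change -0.67 ± 0.07 SE, edgeR adjusted p = 0.00219). The others that fell were Gpx1, Gstm5, Gstz1 and the mitochondrial glutaredoxin Glrx5, with log2 fold changes of -0.72 to -1.14. Of the exon bases of Gstm5, 17.9% overlap 4933431E20Rik, and Gstz1 shares a stretch of 339 bases with the overlapping gene Pomt2. Reads from such stretches cannot be told apart between the genes. Near-identical copies were counted separately for Gstp1 (Gstp2, at most 5770 counts in a library against 57687 for Gstp1) and Gpx4 (Gpx4-ps2, at most 5308 against 22914), and how reads were shared between them is uncertain.

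In the list that holds the substrates of Txnrd1 and Srxn1, 6 of 16 tested genes fell and 1 rose. Prdx1, a peroxiredoxin that sulfiredoxin repairs, fell to 786, 709.7 and 691 CPM from 1935, 1836 and 1900.3 CPM (log2 fold change -1.38 ± 0.06 SE, edgeR adjusted p = 0.000121). Txn1, the cytosolic thioredoxin that Txnrd1 reduces, fell to 34.8, 25.0 and 21.3 CPM from 62.4, 72.0 and 50.1 CPM (log2 fold change -1.19 ± 0.24 SE, edgeR adjusted p = 0.021). Prdx2, Prdx4, Prdx5 and the mitochondrial thioredoxin Txn2 fell too, with log2 fold changes of -0.36 to -0.66. Prdx2 shares a stretch of 154 bases with the overlapping gene Rnaseh2a, and Prdx5 one of 360 bases with Trmt112, so their levels carry the same limit. With the replicate block the edgeR adjusted p was 0.067 for Prdx4 and 0.0518 for Txn2, and Prdx4 also missed the threshold with gene length offsets (edgeR adjusted p = 0.0612). The 1 gene that rose was Sesn2, a sestrin that binds leucine and is a target of ATF4 and p53, with 183, 182 and 192 CPM against 81.1, 94.4 and 69.9 CPM (log2 fold change 1.18 ± 0.13 SE, edgeR adjusted p = 0.00229). Txnip, the thioredoxin inhibitor, was below 10 CPM in every library (log2 fold change 1.24 ± 0.73 SE, edgeR adjusted p = 0.33).

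NADPH, which Gsr, Txnrd1 and Nqo1 consume, is supplied by a group in which 4 of 10 tested genes fell and 0 rose. Taldo1, transaldolase, was at 196, 173 and 189.9 CPM with compound 1 and 389, 391 and 385 CPM with DMSO (log2 fold change -1.06 ± 0.08 SE, edgeR adjusted p = 0.000526). G6pdx, the entry enzyme of the pentose phosphate pathway, was at 23.1, 35.5 and 40.2 CPM against 68.8, 68.3 and 90.6 CPM (log2 fold change -1.20 ± 0.24 SE, edgeR adjusted p = 0.0208). It shares a stretch of 136 bases with the overlapping gene Ikbkg. Pgls and Idh1 fell as well, by 1.05 and 0.66 on the log2 scale, but passed in only 8 and 7 of 16 alternatives and not with the replicate block (edgeR adjusted p = 0.0925 and 0.0905). Pgls was also lost with gene length offsets (edgeR adjusted p = 0.0601). Me1, at or below 5 CPM throughout, did not pass (log2 fold change -1.49 ± 0.66 SE, edgeR adjusted p = 0.199).

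Among the called genes of the lists, 4 had a core in their promoter, Prdx1, G6pdx and Gstm5, which fell, and Sesn2, which rose. Their stretches are shown for comparison with those of the members, with matches in capitals. They lie at chr4:116685439-116685498 (plus strand), chrX:74428904-74428963 (minus strand), chr3:107895784-107895843 (plus strand) and chr4:132510460-132510519 (minus strand) of GRCm38.p6.
Prdx1: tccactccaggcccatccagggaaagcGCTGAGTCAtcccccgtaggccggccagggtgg
G6pdx: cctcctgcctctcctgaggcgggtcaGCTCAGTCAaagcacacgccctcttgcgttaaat
Gstm5: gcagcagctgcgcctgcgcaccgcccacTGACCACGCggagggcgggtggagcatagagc
Sesn2: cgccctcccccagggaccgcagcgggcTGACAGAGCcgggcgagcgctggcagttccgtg

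The matches of Prdx1 and G6pdx read on the opposite strand and those of Gstm5 and Sesn2 on the strand of the gene, and that of Prdx1 is at once a core, an AP-1 site and a CNC element. Of the 112 listed genes 96 had a promoter in the table, and 17 of them, or 17.7%, had the core, against 14.0% of all genes. The CNC element was found in 4, or 4.17%, against 1.37%. These were Prdx1 and Gstp1, which fell, and Me1 and Osgin1, which were not called. In Gstp1, whose promoter had no core, it lay 74 to 66 bases before the start and is not printed.

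Genes for heme and iron handling were divided, with 2 of 12 tested genes higher and 3 lower. Tfrc, the transferrin receptor, rose to 115, 81.5 and 67.9 CPM from 19.3, 25.6 and 27.3 CPM (log2 fold change 1.87 ± 0.25 SE, edgeR adjusted p = 0.00458). The ferritin chains went apart: the light chain Ftl1 had a log2 fold change of 0.51 ± 0.05 SE (edgeR adjusted p = 0.00112) and the heavy chain Fth1 one of -0.50 ± 0.05 SE (edgeR adjusted p = 0.00115). For Ftl1 this is uncertain, since 47.9% of its exon bases overlap other annotated genes and a near-identical copy, Ftl1-ps1, reached 35467 counts. The heme transporter Slc48a1 and the biliverdin reductase Blvrb fell (log2 fold changes -0.94 and -0.88, edgeR adjusted p = 0.0179 and 0.0478). Blvrb passed in 6 of 16 alternatives and not with gene length offsets (edgeR adjusted p = 0.0776). The biliverdin reductase Blvra was not called and passed in 0 of 16 alternatives, with log2 fold changes of -0.24 to 0.05.

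**Figure D5:**
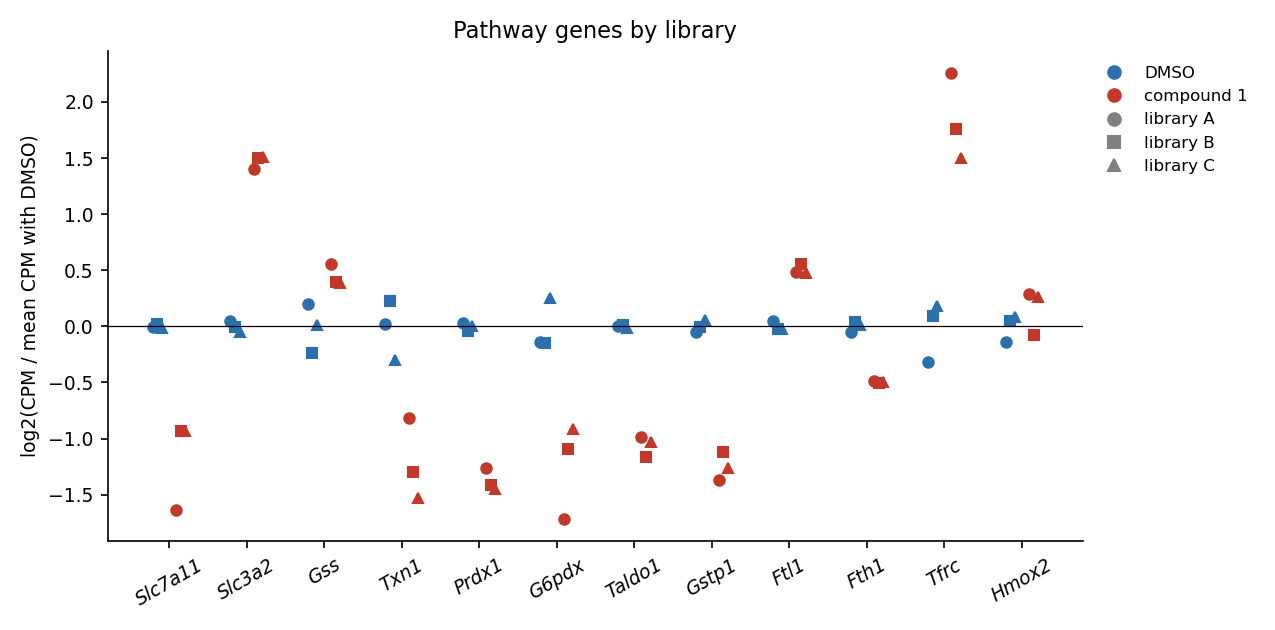
Log2 of the CPM in each library over the mean CPM with DMSO for 12 pathway genes named in the text; symbols mark libraries A, B and C, blue for DMSO and red for compound 1. Slc3a2 and Tfrc lie above 1 in every compound 1 library, and Prdx1 and Gstp1 below -1, while the libraries of Hmox2 mix.

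Of 9 tested genes for quinone, aldehyde and drug metabolism, the functional neighbours of Nqo1, 1 fell, the aldose reductase Akr1b3 (log2 fold change -0.94 ± 0.19 SE, edgeR adjusted p = 0.0218, and 0.0577 with the replicate block), and 0 rose. Of 4 tested superoxide dismutase and catalase genes 0 were called; Sod1 had a log2 fold change of -0.24 ± 0.09 SE (edgeR adjusted p = 0.151) and Sod2 one of -0.11 ± 0.11 SE (edgeR adjusted p = 0.565). Catalase (Cat) could not be tested, as it had at most 1.79 CPM and 0 counts in 4 of the 6 libraries.

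Totals ranged from 70150880 to 94747943 counts with compound 1 and from 59070705 to 69480568 with DMSO, so every compound 1 library was deeper. Of the 9 tested α cell markers, 6 were lower with compound 1. The sum over the list was 5538 to 6281 CPM with compound 1 and 25173 to 27985 CPM with DMSO, most of it the glucagon gene Gcg. Markers of δ and PP cells were at 0 throughout, and those of β cells summed to at most 15.4 CPM. Acinar and ductal markers summed to 27.3 to 44.4 CPM with compound 1 and 9.01 to 22.0 CPM with DMSO, nearly all from Cela1, with Cpa1, Prss2 and Ptf1a at 0. Macrophage and leukocyte markers summed to at most 19.5 CPM, and fibroblast and endothelial markers to at most 4.91 CPM. With counts thinned to the lowest library total, the same 3 members were called, with log2 fold changes of 2.25 for Hmox1, 0.51 for Sqstm1 and -0.70 for Srxn1. The part of the α cell markers in the changes of the members was not tested.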

How the data were processed

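Compound 1 and DMSO were compared in 3 libraries each. RNA was taken through the Smart-seq2 protocol for low input, which amplifies cDNA and does not keep strand, and read in pairs of 100 bases. The authors aligned reads to GRCm38 and deposited raw counts per gene, taken on either strand and summed over transcripts. The authors also deposited FPKM, which are scaled between libraries in a way not given in the sources used here. The submitters' processing notes name STAR 2.7.9a, Picard 2.19.2, DESeq2 1.34.0 and R 4.1.3.

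Counts were filtered with filterByExpr (minimum count 10, minimum total 15), normalized by TMM and tested with the quasi-likelihood test of edgeR 4.0.16 in R 4.3.3, with treatment as the only term and Benjamini-Hochberg adjustment over 15082 genes. Standard errors are the absolute log2 fold change over the root of F. Even numbers made up 78.1% of counts between 1 and 10, so counts need not be independent fragments, and intervals and floors of 3 counts cover counting error only. The scripts were tested on simulated data. DESeq2 1.42.0 and limma 3.58.1 (limma-trend on log2(FPKM + 1), pseudocount 1) served as alternatives, with RLE factors, library size only, 2 other filters (at least 1 count in any library, at least 10 in every library), gene length offsets, thinning to the lowest total, a replicate block by column letter and each library left out in turn.

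Which replicate number of the labels each column letter (A, B or C) stands for is not stated. The fit reported has treatment as its only term, and the letter entered as a replicate block in an alternative. Deviations from the group means of libraries sharing a letter correlated at 0.003 to 0.025 over genes. Named are all 10 members, up to 5 called genes of each list by smallest adjusted p, 17 pathway genes fixed by name and the 5 genes nearest in profile to Nfe2l2. Members and lists were chosen with earlier results of these data known. The motif TGANTCAGC was added after the promoters had been searched for the other motifs. Coordinates are those of the deposited files and equal GENCODE vM21 for all 10 members. Promoters are from RefSeq (GRCm38.p6). Near-identical copies were sought with blastn 2.17.0 (100 bases, 95% identity). Figures were drawn with matplotlib 3.10.9 in Python 3.11.15.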

Additional observations from a re-analysis of the deposited data

How the results depend on the processing

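Hmox1 and Sqstm1 passed under all 16 alternatives that refit the members, Srxn1 under 15, Txnrd1 under 4, Nfe2l2 and Keap1 under 2 each, Gsr under 1 and Gclc and Gclm under 0. With DESeq2 7 members were called, 3 higher and 4 lower, along with 41 pathway genes, 11 higher and 30 lower. Over the table it called 4276 of 16397 tested genes, 2171 higher and 2105 lower, against 2230, 1053 and 1177 as reported. The filter of at least 10 counts in every library called 2 members lower. Gene length offsets called 5 members, 3 of them lower. The study's filter called 1 member, 1 higher and 0 lower, and 12 pathway genes, 3 higher and 9 lower. Over the table it called 1571 genes, 943 higher and 628 lower. Library size only moved the median log2 fold change of all genes by 0.20, to 0.25. With it 67.2% of calls were higher (1630 genes) against 47.2% as reported, and 26 pathway genes were called, 10 higher and 16 lower. All tested members kept their direction under it. The replicate block by column letter changed 0 calls on members (3 called) and called 22 pathway genes, 4 higher and 18 lower, and 1232 genes over the table, 524 higher and 708 lower. Whether the letters mark the replicates that the study says were processed together is not stated. Thinning to the lowest total called 3 members, 29 pathway genes and 2238 genes over the table. The replicate block with gene length offsets called 2 members lower, 18 pathway genes, 14 of them lower, and 995 genes, 374 higher and 621 lower. Leaving out each library in turn gave 2 to 4 called members (2 to 3 higher, 0 to 1 lower), 16 to 23 called pathway genes (4 to 5 higher, 12 to 19 lower) and 1253 to 1556 genes over the table (545 to 613 higher, 706 to 943 lower), with fewer samples in each fit. The fewest members were called without DMSO library C, where Srxn1 was lost, and the most without compound 1 library B, where Nfe2l2 was gained. Across these fits the log2 fold change of Gclc ran from -0.12 (without DMSO library C) to 0.74, with -0.07 without compound 1 library C. The Gclm to Gclc log2 ratio difference ran from -1.11 to 0.48, the latter without DMSO library C, which had 24 Gclc counts. The causes of the other shifts were not tested. Depth limits the statements on Nqo1, Gclc and Cat, and with 3 libraries a group no permutation test of a single value can go below p = 0.1.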
